A study of Mus musculus with 8 samples.

Results

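The genes described here are 37 mouse genes of glycolysis and of the response to low oxygen, taken from the deposited table by symbol. They comprise 2 glucose transporters, 15 glycolytic enzymes, 2 enzymes that direct pyruvate, 2 enzymes of fructose 2,6-bisphosphate, 3 subunits of the hypoxia-inducible factors (HIF), 3 genes of HIF turnover and 10 other genes of the hypoxia response. The table holds 55414 genes, 14458 of them passed the filter on low counts, and all 37 were among these and were tested. Their counts ranged from 35 to 87158 per tumor. Aldoa has a second row in the table, ENSMUSG00000114515, with 1 to 28 counts per tumor, which was not tested.

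Glycolysis splits glucose into pyruvate in the cytosol, and lactate dehydrogenase turns pyruvate into lactate when it is not oxidized in mitochondria. HIF is a transcription factor made of an oxygen-regulated α subunit and the constant partner ARNT. With oxygen present, prolyl hydroxylases mark the α subunit for destruction through VHL, and when oxygen is short the factor accumulates and activates genes of glucose uptake, glycolysis, mitophagy and vessel growth. Solid tumors, mammary tumors among them, commonly have poorly perfused regions in which this program is active.

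The samples were mammary tumors grown from the PyMt cell line, a line that comes from an MMTV-PyMt mouse, in which a mammary tumor virus promoter drives the oncogene. Cells were placed orthotopically in the inguinal mammary fat pad of WT mice aged 6 to 8 weeks. By the study's methods, the implanted cells carried a nonsense control gRNA or an Il20rb gRNA, and the labels do not say which cells gave these tumors. The paper calls the sequenced tumors PyMt mammary tumors and introduces the cells without Il20rb only for a later experiment. Calcipotriol, a vitamin D analog, was applied to the skin over the tumor at 20 nmol every 2 days from 2 days after implantation, and the control mice received the EtOH solvent only (0 nmol). Bulk RNA-Seq was carried out on 4 EtOH-treated tumors (replicates 1, 2, 3 and 4) and 4 calcipotriol-treated tumors (replicates 1, 5, 6 and 7) taken 24 hours after the last treatment. The 4 tumors of a group are biological replicates by the study's methods, and the implanted cells came from a single line.

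Total counts per tumor ranged from 19685397 to 25084715, so 3 counts in a tumor stand for 0.119 to 0.146 CPM (counts scaled to the TMM size of each library). The labels name the cell type as epithelial, but the RNA is from whole tumors. Krt8 and Krt18, keratins of luminal epithelium, had 5403 counts or more in every tumor, whereas Epcam and Krt19 had 0 counts in EtOH replicates 1 and 2 and 26 to 536 counts in the others. The summed CPM of 9 epithelial markers ranged from 1017 to 1322 with EtOH and from 604 to 893 with calcipotriol. Most of the counts in this sum were those of Krt8 and Krt18. Of the 9 markers, 6 had log2 fold changes above 0 and 3 below, with a median of 0.45. Krt18 was lower (log2 fold change -0.93, edgeR's adjusted p = 0.0162) and Krt14, a basal keratin, higher (5.17, edgeR's adjusted p = 0.0336). Krt14 had only 12, 0, 37 and 15 counts in EtOH replicates 1 to 4. In calcipotriol replicates 1, 5, 6 and 7 it had 40, 223, 963 and 1023 counts. The sum of 9 endothelial markers ranged from 158 to 365 with EtOH and from 61.1 to 123 with calcipotriol. The sum of 9 macrophage markers ranged from 2162 to 2614 with EtOH and from 971 to 1894 with calcipotriol. That of 7 erythroid markers ranged from 3459.6 to 5838 and from 435 to 821. All 9 endothelial, 9 macrophage and 7 erythroid markers had log2 fold changes below 0. At edgeR's adjusted p under 0.05, 5 endothelial, 2 macrophage and 5 erythroid markers were lower, beside 1.37% of all genes tested. Without calcipotriol replicate 1, 6 of the 9 endothelial, 6 of the 9 macrophage and 6 of the 7 erythroid markers passed as lower. In that fit 4.39% of all genes were lower. The part of these markers in the results on the 37 genes was not tested. In a bulk tumor, fewer cells of a type and less RNA per cell cannot be told apart.

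Calcipotriol replicate 1 stood apart from the other calcipotriol-treated tumors in several values, though less clearly in its distance to them. With all 8 tumors, 292 genes passed both thresholds (adjusted p under 0.05 from edgeR's quasi-likelihood test, log2 fold change of 1 or more in size), and without this tumor 642 did. Its macrophage marker sum, 1894 CPM, lay between the EtOH range and the 971 to 1132 CPM of the other calcipotriol-treated tumors. Cyp24a1, a target of the vitamin D receptor chosen after its values were seen, had 0 counts in this tumor and in every EtOH-treated tumor, and 130, 36 and 52 counts in calcipotriol replicates 5, 6 and 7. The EtOH-treated tumors fell into 2 pairs. In units of counting error the mean squared difference was 41.7 between EtOH replicates 1 and 2 and 20.2 between EtOH replicates 3 and 4, but 82.0 to 107 across the pairs. Calcipotriol replicate 1 differed from the other calcipotriol-treated tumors by 97.3 to 133. Those others differed from each other by 43.3 to 94.6, so replicate 5 was nearly as far from replicate 7 as replicate 1 was. Results that rest on calcipotriol replicate 1 or on a pair of EtOH-treated tumors are therefore given with and without them.

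None of the 37 genes passed an adjusted p under 0.05 between calcipotriol- and EtOH-treated tumors in either direction by edgeR's quasi-likelihood test, the source of every adjusted p given as edgeR's. Of all genes tested, 1.37% were higher and 1.37% lower by this criterion. With the fold change threshold added, the shares of all genes were 1.07% and 0.948%, and again 0 of the 37 passed. At an unadjusted p under 0.05 there were 5 of the 37 (13.5%), namely Eno2, Higd1a, Pgk1, Pfkfb3 and Epas1, against 18.4% of all genes tested. limma-voom called 0 of the 37 at an adjusted p under 0.05, and of all genes 1.19% higher and 1.54% lower. DESeq2 called 4 of the 37, with Eno2 and Higd1a higher and Epas1 and Pfkfb3 lower. DESeq2 also called more of all genes, 3.63% higher and 3.64% lower. The median log2 fold change was 0.02 over the 37 genes and 0.02 over all genes tested, and 20 of the 37 were above 0. Both the absence of calls by edgeR and the spread around 0 are visible in the plot of fold changes.

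**Figure D1:**
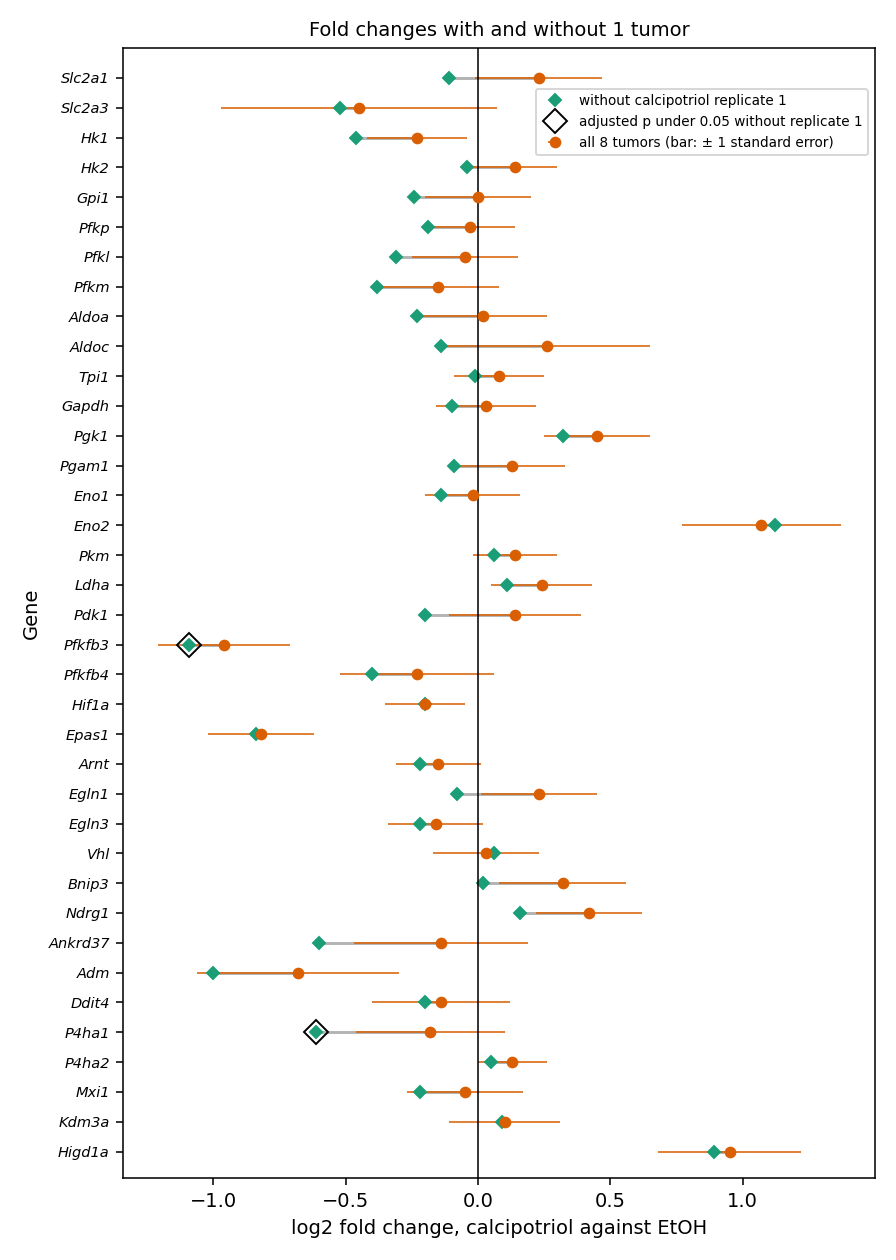
Log2 fold change of each of the 37 genes between calcipotriol- and EtOH-treated tumors, with all 8 tumors (circles, bars ± 1 standard error) and without calcipotriol replicate 1 (diamonds). Without that tumor 27 of the 37 diamonds lie below 0, and the outlined ones, Pfkfb3 and P4ha1, had an adjusted p under 0.05. That tumor had the highest CPM for 24 of the 37 genes, so leaving it out lowers their fold changes.

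The groups did not overlap in 4 of the 37 genes (10.8%), which is close to the 12.5% of all genes tested. Eno2 and Higd1a were higher in every calcipotriol-treated tumor than in every EtOH-treated tumor, and Epas1 and Pfkfb3 were lower. Without calcipotriol replicate 1 the count was 9 of 37 (24.3%), against 23.1% of all genes. The 5 added genes, Hk1, Gpi1, Pfkl, Ankrd37 and P4ha1, were all lower with calcipotriol. The median log2 fold change of the 37 genes was then -0.19, with that of all genes at 0.02, and 27 of the 37 were below 0. Calcipotriol replicate 1 had the highest CPM of the 8 tumors for 24 of the 37 genes. Leaving it out therefore lowers their fold changes, and the shift below 0 is no independent result. Pfkfb3 (log2 fold change -1.09, adjusted p = 0.0413) and P4ha1 (log2 fold change -0.61, adjusted p = 0.0159) passed edgeR's quasi-likelihood test without this tumor, when 2.33% of all genes were higher and 4.39% lower. Without EtOH replicate 4, Epas1 and Pfkfb3 passed as lower, when 0.915% of all genes were higher and 0.982% lower. Without each of the other 6 tumors in turn the count was 0. Without EtOH replicates 1 and 2 the count was 0 as well, when 0.879% of all genes were higher and 0.68% lower. Without EtOH replicates 3 and 4, Epas1 and Pfkfb3 passed as lower, when 2.68% of all genes were higher and 2.87% lower.

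The most frequent pattern among these genes was between tumors of the same treatment. Calcipotriol replicate 1 had the highest CPM of the 8 tumors for 24 of the 37 genes (64.9%), whereas it was highest for 12.6% of all genes tested. It was the lowest tumor for 0 of the 37 and for 10.1% of all genes. Among the 15 glycolytic enzymes it was the highest for 14, all but Eno2. In 19 of the 37 genes (51.4%) it was at least 0.5 log2 above the median of the other 7 tumors, as were 14.6% of all genes. The pattern was noticed in these values and is a description.

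**Figure D2:**
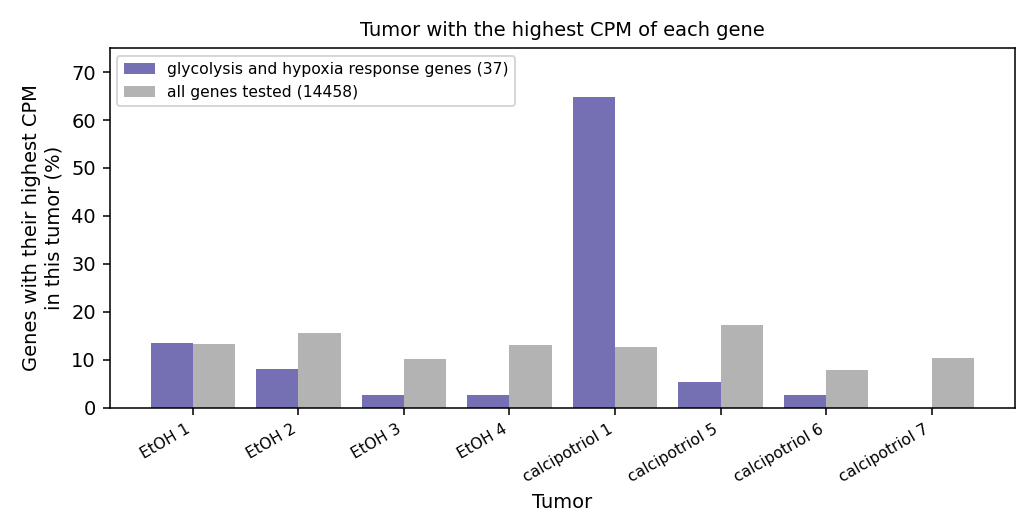
Share of genes whose highest CPM of the 8 tumors fell in each tumor (vertical axis, percent), for the 37 genes of glycolysis and the hypoxia response and for all 14458 genes tested. Calcipotriol replicate 1 holds 64.9% of the 37 genes and 12.6% of all genes.

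The median deviation of the 37 genes from their mean over the 8 tumors, on the log2 scale, was 0.44 in calcipotriol replicate 1 and -0.02, -0.23 and -0.21 in replicates 5, 6 and 7. In EtOH replicates 1, 2, 3 and 4 it was 0, 0.04, 0.01 and 0.07. Over all genes tested that had a CPM above 0 in all 8 tumors the same median was 0.01 or 0.02 in every tumor. The 15 enzymes together took 1.54% of all counts in calcipotriol replicate 1, 1.27%, 1.01% and 0.988% in replicates 5, 6 and 7, and 0.985% to 1.22% in the EtOH-treated tumors. Calcipotriol replicates 1 and 5 lay above the EtOH range of this share, and replicates 6 and 7 lay inside it. Among related genes outside the 37, calcipotriol replicate 1 was the highest tumor for 6 of 28 other glycolysis genes. It was the highest for 11 of 61 other hypoxia response genes and 1 of 16 citrate cycle genes. These shares lie well below the 64.9% of the 37 genes, and the share of all genes tested was 12.6%.

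**Figure D3:**
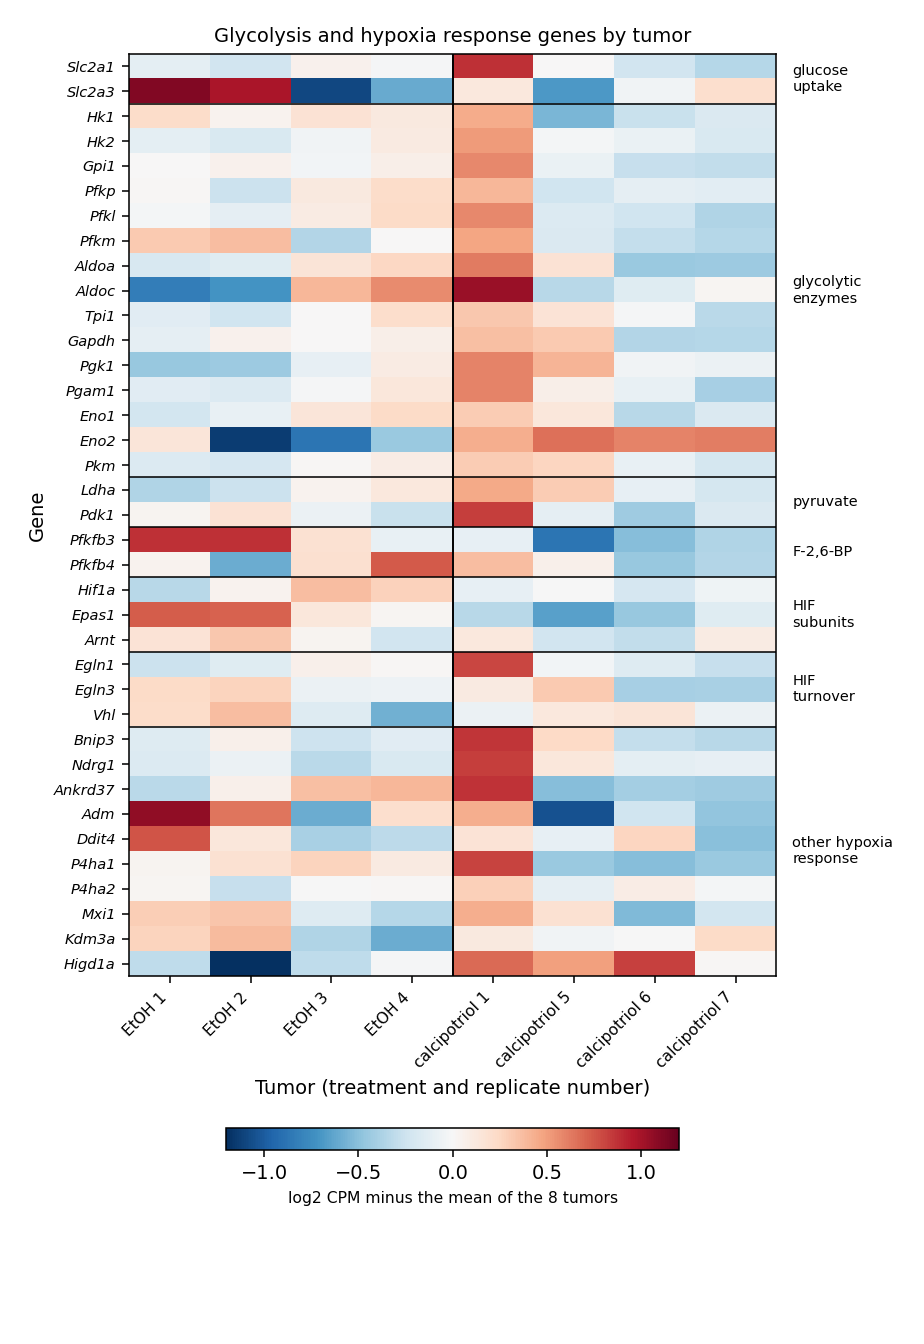
Log2 CPM of each of the 37 genes minus its mean over the 8 tumors (color), with genes grouped by role and tumors by treatment and replicate number. The column of calcipotriol replicate 1 is above the mean for most genes, with a median of 0.44, and Hif1a, Epas1, Pfkfb3 and Vhl lie below their mean in it.

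HIF binds short DNA elements with the core ACGTG or GCGTG. Both letter strings were searched on both strands of windows around each RefSeq gene start (GRCm38.p6), so that CACGTG counts once on each strand. Each window held 250 bases before the start and 50 bases after it. Of the 37 genes, 34 had at least 1 such window, and 30 of these 34 (88.2%) held a match, as did 46.7% of 27025 genes with a window. By window, the shares were 39 of 51 (76.5%) and 43.8% of 32851. The 37 genes were chosen for their part in glycolysis and the hypoxia response, so these shares describe the choice of genes and not the tumors. Slc2a3, Epas1 and Ndrg1 had no window, and Eno2, Gpi1, Tpi1 and Vhl had windows without these letters. The windows of 4 genes that were high in calcipotriol replicate 1, Ankrd37, Bnip3, Slc2a1 and P4ha1, are printed with those of Higd1a and Eno2, the genes with the largest positive fold changes. They were chosen after the values were seen, and only the 250 bases before the start are printed. Capitals mark the matches, which are positions of letters and not measured binding sites, and each sequence runs 5′ to 3′ on the strand of its gene.
Ankrd37, chr8:45999851-46000100, reverse strand: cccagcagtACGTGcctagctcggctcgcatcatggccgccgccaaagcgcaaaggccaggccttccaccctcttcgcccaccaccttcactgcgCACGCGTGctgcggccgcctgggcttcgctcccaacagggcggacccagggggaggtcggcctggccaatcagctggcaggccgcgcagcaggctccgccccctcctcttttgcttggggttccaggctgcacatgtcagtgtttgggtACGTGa
Bnip3, chr7:138909507-138909756, reverse strand: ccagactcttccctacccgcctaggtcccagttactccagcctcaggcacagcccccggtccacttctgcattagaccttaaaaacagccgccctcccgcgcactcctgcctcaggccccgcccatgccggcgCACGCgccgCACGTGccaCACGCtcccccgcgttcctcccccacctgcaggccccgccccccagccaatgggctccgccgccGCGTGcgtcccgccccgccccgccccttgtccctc
Slc2a1, chr4:119108495-119108744, forward strand: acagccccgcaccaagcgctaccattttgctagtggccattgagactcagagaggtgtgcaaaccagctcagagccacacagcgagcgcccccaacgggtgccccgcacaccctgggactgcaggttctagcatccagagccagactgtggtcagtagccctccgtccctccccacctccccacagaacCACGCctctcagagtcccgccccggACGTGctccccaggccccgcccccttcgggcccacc
P4ha1, chr10:59323046-59323295, forward strand: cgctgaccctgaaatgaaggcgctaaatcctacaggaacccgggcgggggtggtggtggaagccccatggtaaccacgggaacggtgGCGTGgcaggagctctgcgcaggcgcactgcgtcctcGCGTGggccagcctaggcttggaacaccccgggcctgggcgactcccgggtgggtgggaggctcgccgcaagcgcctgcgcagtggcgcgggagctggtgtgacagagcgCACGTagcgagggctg
Higd1a, chr9:121857797-121858046, reverse strand: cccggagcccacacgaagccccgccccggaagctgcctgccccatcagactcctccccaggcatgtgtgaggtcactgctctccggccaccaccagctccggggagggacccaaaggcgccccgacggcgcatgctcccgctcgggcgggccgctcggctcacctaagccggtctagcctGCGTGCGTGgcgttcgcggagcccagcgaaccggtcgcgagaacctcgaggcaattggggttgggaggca
Eno2, chr6:124769674-124769923, reverse strand: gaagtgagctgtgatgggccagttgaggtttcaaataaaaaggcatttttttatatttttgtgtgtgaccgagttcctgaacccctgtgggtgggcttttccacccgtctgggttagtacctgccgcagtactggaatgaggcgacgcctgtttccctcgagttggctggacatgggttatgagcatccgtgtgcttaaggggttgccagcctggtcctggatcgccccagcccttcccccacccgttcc
In the bases printed, Bnip3 had 5 matches, Ankrd37 had 4, P4ha1 had 3 and Slc2a1 and Higd1a had 2 each. In Bnip3 a pair of them is the palindrome CACGTG read on either strand, and in Ankrd37 and Higd1a 2 matches share letters.

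Glucose enters cells through transporters of the SLC2 family. Slc2a1 encodes GLUT1, the widespread transporter that tumors use. It was at 193, 178, 217 and 207 CPM in EtOH replicates 1 to 4, and at 383 CPM in calcipotriol replicate 1 against 209, 178 and 164 CPM in replicates 5, 6 and 7. Apart from 1 tumor the groups lay in the same range. Its log2 fold change was 0.23 with all tumors (95% confidence interval -0.31 to 0.78) and -0.11 without calcipotriol replicate 1. Slc2a3, which encodes the high-affinity transporter GLUT3, was scarce. Its 8 values were between 1.42 and 6.52 CPM, with EtOH replicates 1 and 2 the highest at 6.52 and 5.94 CPM and EtOH replicates 3 and 4 at 1.42 and 1.98 CPM. Its log2 fold change was -0.45 (standard error, SE, 0.52, edgeR's adjusted p = 0.696), a difference smaller than the spread within the EtOH group. Per kilobase of transcript, Slc2a3 made up 1.68% ± 1.18 of the Slc2a1 and Slc2a3 total with EtOH and 1.12% ± 0.491 with calcipotriol (SD, n = 4 each).

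Glycolytic enzymes were among the most abundant of these transcripts. On the scale of CPM per kilobase of the longest transcript, Gapdh was highest with 1913 ± 105 in EtOH-treated tumors and 1951 ± 525 in calcipotriol-treated tumors (SD, n = 4 each). Eno1, Pkm and Aldoa followed with 972 ± 139, 892 ± 86.3 and 839.8 ± 125 in EtOH-treated tumors, values that lay within each other's spread. Pgk1, Tpi1, Gpi1 and Pgam1 were between 237 and 373. The isoenzymes of the early steps were lower, with Pfkl at 48.0, Pfkp at 43.3, Hk1 at 34.2, Pfkm at 9.54 and Hk2 at 9.17. Lowest were the enzymes known from brain, Aldoc at 4.85 and Eno2 at 1.55. The order of the steps is drawn in the plot of levels along glycolysis.

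**Figure D4:**
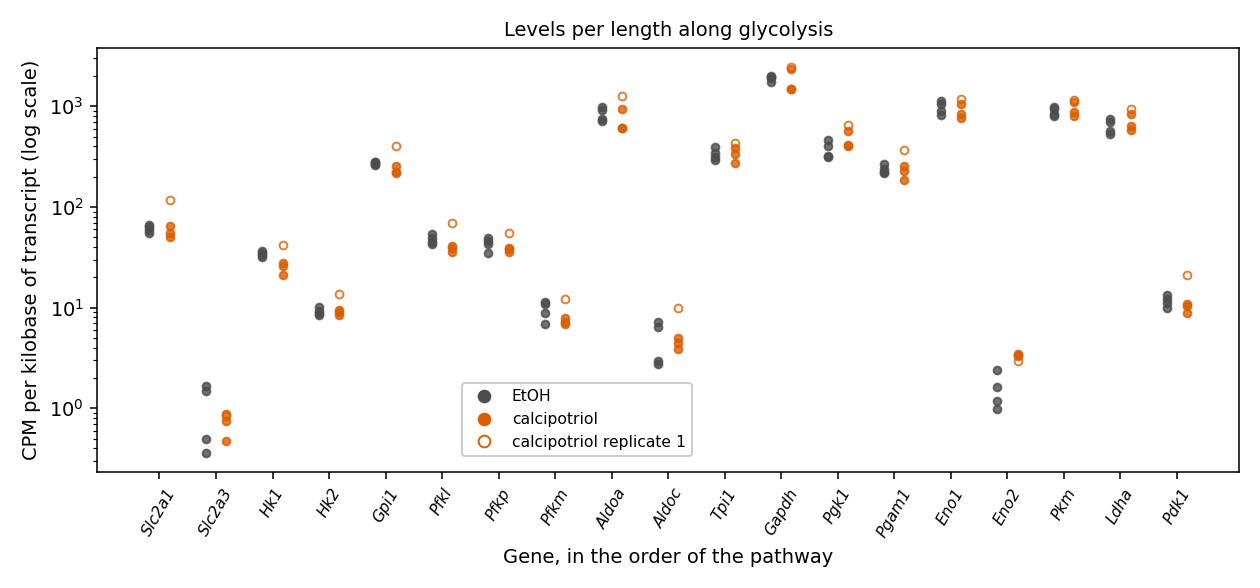
Level of each transporter, glycolytic enzyme, Ldha and Pdk1 in every tumor, as CPM per kilobase of the longest transcript on a log axis, in the order of the pathway. Open circles, calcipotriol replicate 1, are the highest point of every gene shown except Slc2a3 and Eno2, and Gapdh lies highest on the axis with group means of 1913 and 1951.

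The hexokinases trap glucose in the cell as glucose 6-phosphate. Hk1, the constitutive form, was between 137 and 155 CPM in EtOH-treated tumors, and calcipotriol-treated tumors had 181 CPM in replicate 1 but 90.9, 110.5 and 118 CPM in replicates 5, 6 and 7. Without replicate 1 the groups of Hk1 did not overlap, and the log2 fold change was -0.46 (SE 0.13, edgeR's adjusted p = 0.069), which did not pass. Hk2, the inducible form, was between 46.3 and 56.4 CPM with EtOH and between 46.3 and 51.7 CPM in calcipotriol replicates 5, 6 and 7, with 74.7 CPM in replicate 1. The share of Hk2 in the hexokinase total per kilobase was 21.1% ± 1.59 with EtOH (19.5% to 23.3%) and 26.0% ± 3.24 with calcipotriol (23.4% to 30.6%, SD, n = 4 each). These ranges of the Hk2 share met almost end to end without overlapping, and replicate 1, at 24.2%, was not the highest. This share was not tested. The shares of the phosphofructokinase isoenzymes, of Aldoc and of Eno2 within their pairs overlapped between the groups.

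Gpi1, which isomerizes glucose 6-phosphate, and Pfkl, the liver-type phosphofructokinase of the committed step, behaved like Hk1. Gpi1 was at 757 to 815 CPM with EtOH and at 733, 642 and 631 CPM in calcipotriol replicates 5, 6 and 7, and replicate 1 was at 1157 CPM. Pfkl was at 159.6 to 202 CPM with EtOH, at 154, 146 and 134 CPM in replicates 5, 6 and 7, and at 256 CPM in replicate 1. Neither passed without replicate 1 (edgeR's adjusted p = 0.326 for Gpi1 and 0.21 for Pfkl). Pfkp, the platelet-type form, and Pfkm, the muscle form, overlapped between the groups, and their log2 fold changes were -0.03 and -0.15. Pfkm was highest in calcipotriol replicate 1 and EtOH replicates 2 and 1 (35.3, 33.0 and 31.6 CPM), and the summed skeletal muscle markers were at 3.18, 4.62 and 6.13 CPM in these tumors, against 62.6 CPM in EtOH replicate 4.

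Aldoa and Tpi1, which produce and interconvert the triose phosphates, and Gapdh, which oxidizes them, had log2 fold changes of 0.02, 0.08 and 0.03. For Gapdh, which is often used as a reference transcript, the 95% confidence interval was -0.40 to 0.46. Gapdh varied within the calcipotriol group, with 3463 and 3368 CPM in replicates 1 and 5 and 2121 and 2129 CPM in replicates 6 and 7, while the EtOH-treated tumors were between 2505 and 2841 CPM. The EtOH range of Gapdh therefore lay inside the calcipotriol range. Up to 52 other genes of the annotation, processed copies in the main, share stretches with Gapdh. These copies held at most 1.28% of the counts of Gapdh and the copies together in any tumor. Pgam1, Pgk1 and Eno1 also have near-identical copies, holding at most 1.042%, 0.686% and 0.415% by the same measure. Genes that overlap or adjoin the gene itself were left out of these shares. One of them, Gm49759 at Pkm, shares 24 windows with it and had 335 to 2493 counts per tumor, against 40320 or more for Pkm. Whether reads were assigned to the wrong gene was not tested. Aldoc, the brain form of aldolase, ranged from 7.69 to 20.2 CPM within the EtOH group alone and reached 27.9 CPM in calcipotriol replicate 1.

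Pgk1, the first ATP-producing enzyme of the pathway, on chromosome X (GRCm38, 106187100 to 106203699, ENSMUSG00000062070), had the second largest positive fold change among the enzymes. It was at 572, 580, 734 and 837 CPM in EtOH replicates 1 to 4 and at 1183, 1039, 759.9 and 744 CPM in calcipotriol replicates 1, 5, 6 and 7. The calcipotriol-treated tumors with the lowest Pgk1, replicates 6 and 7, lay below EtOH replicate 4, so the groups overlapped. Pgk1 had a log2 fold change of 0.45 (SE 0.20, edgeR's adjusted p = 0.254), and 0.32 without calcipotriol replicate 1. Pgam1, Eno1 and Pkm, which carry 3-phosphoglycerate to pyruvate, had log2 fold changes of 0.13, -0.02 and 0.14.

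Eno2, the neuronal form of enolase, on chromosome 6 (124760053 to 124769673, reverse strand, ENSMUSG00000004267), had the largest fold change of the 37 genes. It was at 6.76, 2.77, 3.32 and 4.50 CPM in EtOH replicates 1 to 4 and at 8.26, 9.64, 9.23 and 9.37 CPM in calcipotriol replicates 1, 5, 6 and 7. The groups did not overlap, and the calcipotriol-treated tumors lay close together. For Eno2 the log2 fold change was 1.07 (SE 0.30, edgeR's adjusted p = 0.0892), and it was 0.91 to 1.37 over the fits that left out 1 tumor. The adjusted p was 0.0153 from DESeq2 and 0.0555 from limma-voom. Eno2 remained a small part of the enolase transcripts, with 0.166% ± 0.0879 of the Eno1 and Eno2 total per kilobase in EtOH-treated and 0.352% ± 0.0809 in calcipotriol-treated tumors (SD, n = 4 each).

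Ldha, the lactate dehydrogenase subunit that favors lactate formation, was at 963, 1036, 1269 and 1349 CPM with EtOH and at 1696, 1526, 1155 and 1067 CPM in calcipotriol replicates 1, 5, 6 and 7. The groups overlapped, with replicates 6 and 7 inside the EtOH range, and the log2 fold change was 0.24 (95% confidence interval -0.18 to 0.65). Pdk1 encodes a kinase that keeps pyruvate out of the citrate cycle. It was at 50.9 to 68.9 CPM with EtOH, at 56.8, 45.5 and 54.1 CPM in calcipotriol replicates 5, 6 and 7, and at 109 CPM in replicate 1. For Pdk1 the sign of the log2 fold change depended on that tumor, being 0.14 with it and -0.20 without it.

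Pfkfb3 and Pfkfb4 make and remove fructose 2,6-bisphosphate, the strongest activator of phosphofructokinase. Pfkfb3, on chromosome 2 (11471433 to 11554077, reverse strand, ENSMUSG00000026773), was at 39.3, 39.0, 24.2 and 20.1 CPM in EtOH replicates 1 to 4 and at 19.9, 11.6, 15.0 and 16.6 CPM in calcipotriol replicates 1, 5, 6 and 7. Every calcipotriol-treated tumor was below every EtOH-treated tumor, although EtOH replicate 4 and calcipotriol replicate 1 differed by little. Pfkfb3 had a log2 fold change of -0.96 (SE 0.25, edgeR's adjusted p = 0.0755) with all tumors, and the adjusted p was 0.0109 from DESeq2 and 0.0968 from limma-voom. Pfkfb3 had an adjusted p of 0.0377 where no filter on low counts was applied. EtOH replicates 1 and 2 held the higher values of their group, and the log2 fold change was -0.49 (edgeR's adjusted p = 0.279) without them and -1.31 (edgeR's adjusted p = 0.0129) without EtOH replicates 3 and 4. Pfkfb4 overlapped between the groups, with 7.93 to 20.1 CPM with EtOH, 8.75 to 15.5 CPM with calcipotriol and a log2 fold change of -0.23.

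**Figure D5:**
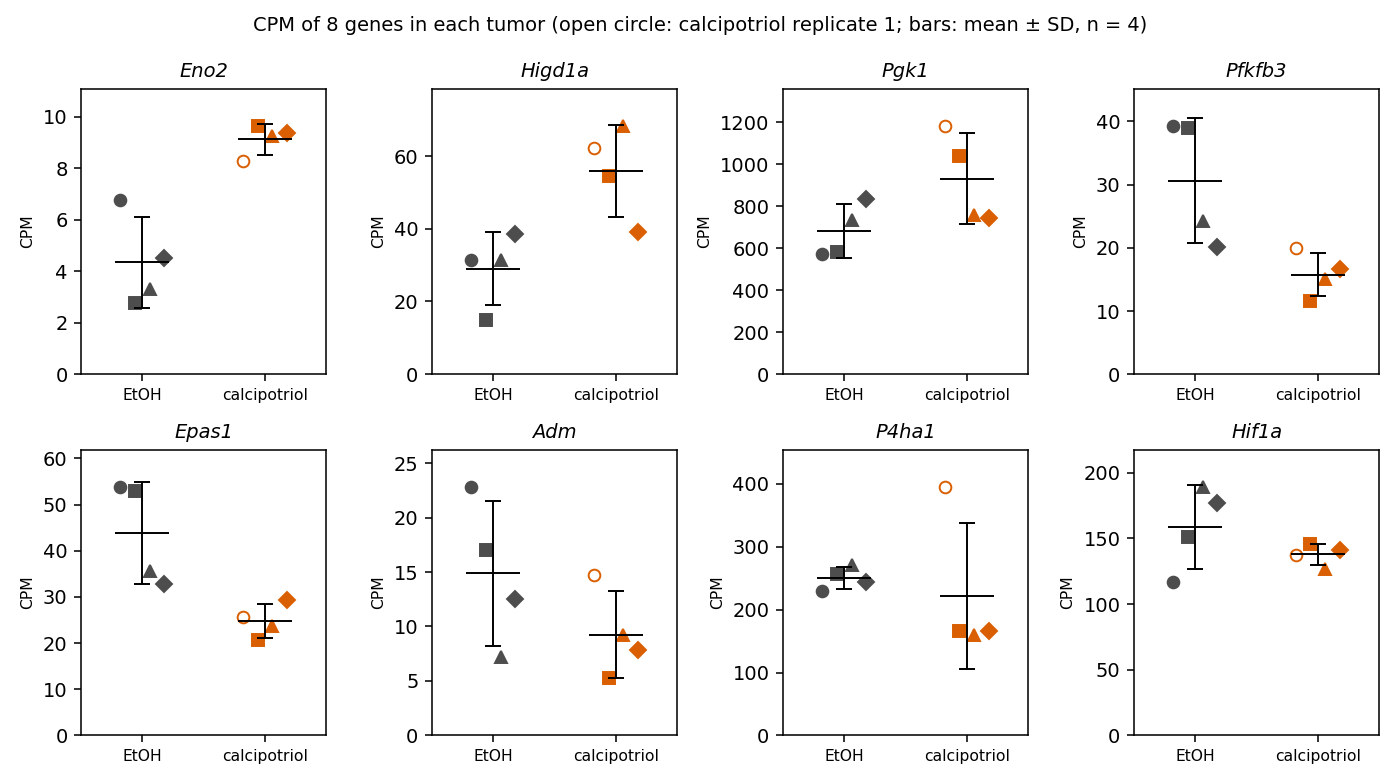
CPM of 8 genes in each of the 8 tumors (symbols, open circle for calcipotriol replicate 1), with the mean ± SD of each group (n = 4) and vertical axes from 0. The groups of Eno2, Higd1a, Pfkfb3 and Epas1 do not overlap, and in P4ha1 calcipotriol replicate 1, at 395 CPM, lies above the EtOH-treated tumors while the other calcipotriol-treated tumors lie below them.

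All 3 HIF subunits had log2 fold changes below 0, and none passed the test. Hif1a, which encodes HIF-1α, on chromosome 12 (73901375 to 73947530, ENSMUSG00000021109), was at 117, 151, 189 and 177 CPM in EtOH replicates 1 to 4 and at 137, 146, 127 and 141 CPM in calcipotriol replicates 1, 5, 6 and 7. The calcipotriol range lay inside the EtOH range, and the log2 fold change was -0.20 (SE 0.15, edgeR's adjusted p = 0.53). HIF-1α is controlled mainly through the stability of its protein, which RNA-Seq does not measure. Arnt, the common partner, on chromosome 3 (95434388 to 95497240, ENSMUSG00000015522), was at 65.7, 73.4, 60.1 and 49.8 CPM with EtOH and at 64.2, 50.0, 47.9 and 62.7 CPM with calcipotriol. The Arnt groups overlapped, with a log2 fold change of -0.15 (edgeR's adjusted p = 0.668).

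Epas1 encodes HIF-2α, a subunit known for its high expression in endothelial cells. It lies on chromosome 17 (86753700 to 86833410, ENSMUSG00000024140). Its values were 53.8, 53.0, 35.6 and 32.9 CPM in EtOH replicates 1 to 4 and 25.7, 20.6, 23.7 and 29.3 CPM in calcipotriol replicates 1, 5, 6 and 7. Every calcipotriol-treated tumor was below every EtOH-treated tumor. The log2 fold change of Epas1 was -0.82 (SE 0.20) and its adjusted p of 0.0568 from edgeR's quasi-likelihood test was the smallest of the 37 genes. The adjusted p was 0.0066 from DESeq2, 0.0649 from limma-voom, 0.029 with no filter on low counts and 0.0497 with at least 10 counts required in every tumor. The log2 fold change of Epas1 was -0.46 (edgeR's adjusted p = 0.176) without EtOH replicates 1 and 2, the higher pair, and -1.10 (edgeR's adjusted p = 0.0102) without EtOH replicates 3 and 4. The endothelial marker sum moved the same way, with 335 and 365 CPM in EtOH replicates 1 and 2, 160.0 and 158 CPM in EtOH replicates 3 and 4, and 123, 61.1, 85.9 and 90.8 CPM in calcipotriol replicates 1, 5, 6 and 7. All 9 endothelial markers had log2 fold changes below 0, with a median of -1.46, and none of the 9 was at 0 counts in any tumor. The part of endothelial transcripts in the Epas1 difference was not tested.

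The genes of HIF turnover overlapped between the groups. Egln1 and Egln3 encode prolyl hydroxylases that sense oxygen, and both are also induced by HIF. Egln1 was at 68.7 to 86.0 CPM with EtOH, at 80.5, 73.7 and 67.7 CPM in calcipotriol replicates 5, 6 and 7, and at 143 CPM in replicate 1. Egln3 was not raised in that tumor (151 CPM), and its highest value was 174 CPM in calcipotriol replicate 5. The log2 fold changes of Egln1 and Egln3 were 0.23 and -0.16, and that of Vhl, the substrate receptor that binds hydroxylated HIF-α, was 0.03.

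Among the 10 other hypoxia response genes, Higd1a, a mitochondrial protein of the respiratory chain, had the largest positive fold change. Higd1a, on chromosome 9 (121848563 to 121858362, reverse strand, ENSMUSG00000038412), was at 31.4, 15.0, 31.3 and 38.5 CPM in EtOH replicates 1 to 4 and at 62.2, 54.4, 68.3 and 39.1 CPM in calcipotriol replicates 1, 5, 6 and 7. The groups did not overlap, but EtOH replicate 4 and calcipotriol replicate 7 were nearly equal. Its log2 fold change was 0.95 (SE 0.27, edgeR's adjusted p = 0.0942), and 0.73 to 1.11 over the fits that left out 1 tumor. The adjusted p of Higd1a was 0.0143 from DESeq2, 0.0373 with no filter on low counts and 0.0806 from limma-voom.

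Adm, which encodes the vasodilator adrenomedullin, had the largest negative fold change of these 10. Adm, on chromosome 7 (110627661 to 110629820, ENSMUSG00000030790), was at 22.8, 17.0, 7.21 and 12.5 CPM in EtOH replicates 1 to 4 and at 14.7, 5.25, 9.18 and 7.84 CPM in calcipotriol replicates 1, 5, 6 and 7. The groups overlapped widely. Adm had a log2 fold change of -0.68 (SE 0.38, edgeR's adjusted p = 0.377), and it did not pass without calcipotriol replicate 1 either (edgeR's adjusted p = 0.154). The size of this fold change rested on a pair of EtOH-treated tumors. It was -0.08 (edgeR's adjusted p = 0.937) without EtOH replicates 1 and 2, and -1.1 (edgeR's adjusted p = 0.113) without EtOH replicates 3 and 4.

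P4ha1, chosen after its values were seen, encodes a catalytic subunit of the prolyl 4-hydroxylase that modifies collagen in the endoplasmic reticulum. It lies on chromosome 10 (59323296 to 59373304, ENSMUSG00000019916). It was at 230.3, 256, 271 and 244 CPM in EtOH replicates 1 to 4, at 395 CPM in calcipotriol replicate 1, and at 166, 159 and 166 CPM in calcipotriol replicates 5, 6 and 7. Calcipotriol replicate 1 was above all EtOH-treated tumors and the other 3 were below them. The log2 fold change was -0.18 (SE 0.28) with all tumors and -0.61 (SE 0.12, edgeR's adjusted p = 0.0159) without that tumor. The summed fibroblast markers, which include 3 collagen genes, were at 5559.8 to 6939.6 CPM with EtOH and at 5477, 4357, 6496 and 7297 CPM in calcipotriol replicates 1, 5, 6 and 7. The part of these markers in the P4ha1 values was not tested. P4ha2, which encodes the related subunit, was between 51.0 and 75.5 CPM in all 8 tumors, with a log2 fold change of 0.13.

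Ankrd37 and Bnip3 had the pattern of calcipotriol replicate 1 in strong form. Ankrd37, an ankyrin repeat gene known as a HIF target, was at 9.97, 13.1, 16.0 and 16.5 CPM with EtOH, at 22.8 CPM in calcipotriol replicate 1, and at 8.77, 9.42 and 9.28 CPM in replicates 5, 6 and 7. Like P4ha1 it was above the EtOH range in 1 calcipotriol-treated tumor and below it in 3, and its log2 fold change without replicate 1 was -0.60 (edgeR's adjusted p = 0.151). Bnip3, a receptor for mitophagy, was at 140.1 to 174 CPM with EtOH, at 303 CPM in calcipotriol replicate 1 and at 197, 137 and 133 CPM in replicates 5, 6 and 7. Ndrg1, a stress-response gene, was at 109 to 130.1 CPM with EtOH, at 242 CPM in calcipotriol replicate 1 and at 150.2, 126 and 128 CPM in replicates 5, 6 and 7. The log2 fold changes of Bnip3 and Ndrg1 were 0.32 and 0.42 with all tumors and 0.02 and 0.16 without replicate 1. Ddit4, an inhibitor of mTORC1, Mxi1, an antagonist of MYC, and Kdm3a, a histone demethylase, overlapped between the groups, with log2 fold changes of -0.14, -0.05 and 0.10.

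Genes of the same pathways outside the 37 were read from the same fit. Of 61 other hypoxia response genes tested, 4 were higher and 0 were lower at an adjusted p under 0.05, beside 1.37% of all genes in each direction. Their median log2 fold change was 0.14. The 4 genes were Vegfa, Angptl4, Rora and Hmox1. Without calcipotriol replicate 1, 7 of the 61 passed, 5 higher and 2 lower, beside 2.33% of all genes higher and 4.39% lower. The added genes were Stc2 (2.09), Zfp395 (-0.80) and Csrp2 (-1.15, log2 fold changes). Of 28 other glycolysis genes and 16 citrate cycle genes tested, 0 passed in either direction, with medians of 0.01 and -0.12. Without calcipotriol replicate 1, 1 of the other glycolysis genes passed, as lower, beside 4.39% of all genes. It was Slc2a6, a glucose transporter of lysosomes (log2 fold change -1.66, edgeR's adjusted p = 0.0115). With limma-voom 1 of the other glycolysis genes passed, beside 1.19% of all genes higher and 1.54% lower.

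Vegfa, the main growth factor of blood vessels and a textbook HIF target, was at 106, 66.9, 103 and 92.4 CPM with EtOH and at 233, 238, 261 and 259 CPM in calcipotriol replicates 1, 5, 6 and 7. The groups did not overlap, and calcipotriol replicate 1, the highest tumor for most of the 37 genes, was the lowest of the 4 calcipotriol-treated tumors for Vegfa. Its log2 fold change was 1.43 (SE 0.16, edgeR's adjusted p = 0.00233). It passed without each tumor in turn, with edgeR's adjusted p at 0.00139 to 0.0116. Angptl4, a secreted inhibitor of lipoprotein lipase, rose from 12.2 ± 1.08 to 29.6 ± 9.89 CPM (SD, n = 4 each, log2 fold change 1.28, edgeR's adjusted p = 0.0207). It did not pass without EtOH replicate 2 or 3 or calcipotriol replicate 6 (edgeR's adjusted p = 0.0595, 0.059 and 0.0541). Rora, a nuclear receptor, had a log2 fold change of 2.12 (adjusted p = 0.0258), and it did not pass without EtOH replicate 1, 2 or 4 or calcipotriol replicate 5 (adjusted p = 0.0526 to 0.0702). Hmox1, heme oxygenase 1, also a gene of macrophages and of the oxidative stress response, had a log2 fold change of 1.39 (adjusted p = 0.0325), and it passed only without EtOH replicate 4 or calcipotriol replicate 1, the adjusted p being 0.0503 to 0.092 without each of the other tumors.

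The remaining genes with values given by rule did not pass. Car9, which encodes the pH-regulating carbonic anhydrase IX and is a widely used marker of hypoxia, was at 12.5, 10.3, 36.0 and 35.5 CPM with EtOH and at 113, 37.8, 29.8 and 39.1 CPM in calcipotriol replicates 1, 5, 6 and 7. Car9 was thus highest in the same tumor as most of the 37 genes, and its log2 fold change was 1.22 (edgeR's adjusted p = 0.238) with that tumor and 0.59 without it. Slc16a1 and Slc16a3 encode the lactate transporters MCT1 and MCT4. Slc16a1 was at 88.5, 90.0, 113 and 118 CPM with EtOH and at 123, 183, 125 and 142 CPM with calcipotriol, so the groups did not overlap, but the log2 fold change of 0.49 did not pass (edgeR's adjusted p = 0.144). Slc16a3 overlapped between the groups, with a log2 fold change of -0.30. Ldhb, the lactate dehydrogenase subunit that favors lactate use, was at 13.2, 19.0, 14.7 and 15.8 CPM with EtOH and at 6.16, 11.3, 7.26 and 5.51 CPM with calcipotriol. The groups of Ldhb did not overlap, and its log2 fold change was -1.05 (edgeR's adjusted p = 0.0588). It passed without calcipotriol replicate 5 (log2 fold change -1.31, edgeR's adjusted p = 0.0326).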

How the data were processed

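RNA-Seq of whole mammary tumors from 4 EtOH-treated and 4 calcipotriol-treated mice was analysed. The authors deposited expected counts (estimated reads per Ensembl gene, not scaled between tumors), with 4.2% to 6.22% of values not whole, depending on the tumor. The submitters' processing notes name STAR 2.5.3, RSEM 1.3.1, DESeq2 1.24.0 and GRCm38, without roles, and the annotation release is not given in the sources used here. The labels name the NovaSeq6000 as sequencer, and the study's methods name another instrument. Columns of other samples numbered 0.

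The estimated counts were rounded, a step not foreseen when the tests were planned. Identifiers were matched to GENCODE M21 (GRCm38), which gave a symbol to 52081 of 55414. The comparison used edgeR 4.0.16 under R 4.3.3, with filterByExpr on the groups, TMM, glmQLFit and glmQLFTest, with Benjamini-Hochberg adjustment over all 14458 genes tested. TMM library sizes scaled the CPM, and the prior count on the log2 scale was 2. Total counts of 19685397 to 25084715 limit the precision to a floor of 3 counts, which covers counting error only. Alternatives were DESeq2 1.42.0, limma-voom (limma 3.58.1), 2 other scalings, 2 other filters and each tumor left out in turn, and 2 fits without a pair of EtOH-treated tumors were added after the data were seen. No 2 tumors of a group agreed within counting error, the mean squared difference between them being 20.2 to 133 in units of that error. Near-identical copies were genes elsewhere in the genome sharing at least 10 windows of 50 bases, taken every 25 bases, with a transcript of the gene.

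Values in every tumor are given for genes with an adjusted p under 0.05, for the 6 with the largest absolute log2 fold change that missed it (Eno2, Pfkfb3, Higd1a, Epas1, Adm and Pgk1) and for the HIF subunits. Of the other pathway lists, genes that passed are named, and Vegfa, Car9, Slc16a1, Slc16a3 and Ldhb whatever their values. All others named were chosen after their values were seen. The 37 genes and the lists were chosen with earlier results of these data known. In simulated counts (dispersion 0.12) 200 genes were given a log2 fold change of 2. Of these, edgeR found 182 and limma-voom 180, with 7 and 10 false calls over 14652 genes. DESeq2 found 181, with 23 false calls over 23302. Smaller fold changes were not simulated. The largest log2 fold change of the 37 genes was 1.07, so the simulation does not tell how often changes of such sizes are found.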

Additional observations from a re-analysis of the deposited data

Results flagged for a closer look

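For each of the 37 genes, the highest and lowest tumor of each group of 4 was examined by Dixon's test, which compares the gap to the nearest other tumor with the range of the group, on log2 CPM. Of 74 groups, 3 had a tumor far from the others, and chance alone gives about 3.7. Ankrd37 was at 22.8 CPM in calcipotriol replicate 1, while calcipotriol replicates 5, 6 and 7 were at 8.77 to 9.42 CPM. P4ha1 was at 395 CPM in calcipotriol replicate 1, against 159 to 166 CPM in the others. P4ha2 was at 51.0 CPM in EtOH replicate 2, against 61.8 to 62.8 CPM in the other EtOH-treated tumors. On CPM without the log, 6 groups had such a tumor, with calcipotriol replicate 1 of Pfkl (256 CPM), Pfkm (35.3 CPM) and Egln1 (143 CPM) added.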

How the results depend on the processing

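With 292 genes past both thresholds in the reported fit, 458 passed with no filter on low counts, 774 with DESeq2 and 110 to 642 with each tumor left out in turn. All 4 calcipotriol replicates and EtOH replicates 1, 2 and 3 moved this total by over 1.5 times when left out. Of the 37 genes, DESeq2 put 1 (2.7%) higher past both thresholds, with 2.51% of all genes, and 2 higher and 2 lower at an adjusted p under 0.05, with 3.63% and 3.64% of all genes. With no filter, 1 was higher and 2 were lower at an adjusted p under 0.05 (1.36% and 1.31% of all genes), and with at least 10 counts required in every tumor 1 was lower (1.94% of all genes). Over the fits that left out 1 tumor, the count lower was 0 to 1 past both thresholds (0.277% to 2.7% of all genes) and 0 to 2 at an adjusted p under 0.05 (0.324% to 4.39% of all genes), and the groups did not overlap for 4 to 9 of the 37 (14.3% to 23.1% of all genes). The log2 fold change turned with limma-voom for Gpi1 (-0.04), Aldoa (-0.04) and Gapdh (-0.01), and with upper quartile scaling for Eno1 (0.00), all of them near 0 in the reported fit. Leaving out each tumor in turn gave log2 fold changes on both sides of 0 for Slc2a1 (-0.11 to 0.37), Hk2 (-0.04 to 0.22), Gpi1 (-0.24 to 0.10), Pfkp (-0.19 to 0.04), Pfkl (-0.31 to 0.05), Aldoa (-0.23 to 0.16), Aldoc (-0.14 to 0.52), Tpi1 (-0.01 to 0.19), Gapdh (-0.10 to 0.14), Pgam1 (-0.09 to 0.26), Eno1 (-0.14 to 0.08), Pdk1 (-0.20 to 0.29), Pfkfb4 (-0.41 to 0.03), Egln1 (-0.08 to 0.35), Vhl (-0.13 to 0.17), Ddit4 (-0.27 to 0.16), Mxi1 (-0.22 to 0.10) and Kdm3a (-0.05 to 0.26). Fits without pairs of EtOH-treated tumors were added after the distances between tumors were seen. Without EtOH replicates 1 and 2, 177 genes passed both thresholds, and the log2 fold change turned for Slc2a3 (0.77), Pfkm (0.13), Aldoa (-0.15), Aldoc (-0.23), Tpi1 (-0.05), Gapdh (0.00), Arnt (0.03), Egln3 (0.01), Ddit4 (0.34) and Mxi1 (0.26). Without EtOH replicates 3 and 4, 605 genes passed both thresholds, 2 of the 37 were lower past them and at an adjusted p under 0.05 (1.8% and 2.87% of all genes), and the log2 fold change turned for Pfkp (0.12), Pfkl (0.07), Eno1 (0.16), Pfkfb4 (0.18), Hif1a (0.04), Vhl (-0.26), Ankrd37 (0.13) and Kdm3a (-0.24). The cause of these changes was not tested. The other scalings moved the median of all genes by at most 0.028 on the log2 scale. The fit without calcipotriol replicate 1 for the other pathway genes was added after the data were seen. No paired analysis was possible because the groups share only replicate number 1 in the labels. With 4 tumors in each group and a biological coefficient of variation of 0.347, the standard error of the log2 fold change was 0.13 to 0.52 over the 37 genes, with a median of 0.20.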
